A study of Homo sapiens with 12 samples.

Results

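Wnt signalling begins when a secreted ligand, carried to the cell surface by WLS, binds a Frizzled receptor together with LRP5 or LRP6. Without a ligand, the destruction complex of AXIN, APC, GSK3 and casein kinase 1 marks beta-catenin for removal by the ubiquitin ligase that contains BTRC. With a ligand, Dishevelled recruits AXIN to the receptor, beta-catenin enters the nucleus and displaces TLE corepressors from TCF factors, and BCL9 joins beta-catenin there to activate target genes, some of which (AXIN2, NKD1, NOTUM, RNF43, ZNRF3) dampen the pathway in turn. In multiple myeloma the pathway is known from both sides: the tumour cells can use it to grow, and the antagonist DKK1 that they secrete is known to restrain bone-forming cells.

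The genes described here are the 45 ligands, receptors, destruction complex components, feedback genes and corepressors of this pathway, chosen by gene symbol. The choice was made with earlier results of these data known. Of the 45, 42 had a probe set that names that gene alone and 39 were above the filter on dim signals, out of 14725 genes above it and 19775 genes represented in all. A probe set is a group of short probes on the array that read 1 transcript, and each gene was followed on its brightest probe set, as the mean over 12 arrays ranks them. WNT3 and FZD8 lie only on probe sets that name several genes and have no value here. PORCN, the acyltransferase that lipidates Wnt ligands, has no probe set listed in the annotation used here. The ligand WNT5A, the R-spondin receptor LGR5 and the feedback inhibitor APCDD1 were represented but not above the filter in any of the 12 arrays. Of the 39 tested members, RNF43 met the filter, which asks for 3 arrays, through its 3 shBCL9 arrays and 1 shGFP array, so its difference is given as a description.

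All 12 arrays are of H929, an established human multiple myeloma cell line, in 4 groups of 3. The shBCL9 group was infected with a short hairpin RNA against BCL9 and the shGFP group with one against GFP, and GFP-positive cells of both were sorted by flow cytometry. The miR-30 group was transfected with the human microRNAs hsa-miR-30a, b, c, d and e, and the cel-miR-67 group with a worm microRNA as control. The labels do not say whether the 5 microRNAs were given together, how long the cells were treated, or whether the replicates were separate cultures, so a p-value here speaks only of the scatter among arrays, which may be of technical origin. The series title names BCL9 as a target of miR-30-5p, and the question here is what the pathway around BCL9 did in each arm. Levels are log2 intensities, and a change is a difference of log2 means, so a change of 1 is a doubling. A gene was called when limma's p, adjusted by Benjamini-Hochberg over all 14725 genes, was under 0.05.

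The targeted gene moved little. BCL9 had 7.73, 7.61 and 7.85 in shBCL9 arrays, against 7.88, 7.90 and 7.88 in shGFP arrays. Each shBCL9 array was below every shGFP array, but the change of -0.15 was not called (limma adjusted p = 0.0874), and an exact two-sided permutation test gave p = 0.1, the smallest that 3 against 3 allows. In miR-30 arrays BCL9 had 7.99, 8.05 and 7.83, against 7.82, 7.86 and 7.79 in cel-miR-67 arrays, and the groups overlapped (change 0.14, adjusted p = 0.269). The BCL9 change was called without shBCL9 replicate 3 (-0.21, adjusted p = 0.0310) and with array weights (-0.17, adjusted p = 0.0261). The miR-30 change of BCL9 minus its shBCL9 change was 0.29 and was called (adjusted p = 0.0404), a call kept in 8 of 24 alternative settings. CTNNB1, which encodes beta-catenin, changed by -0.10 in shBCL9 against shGFP cells (adjusted p = 0.160) and by -0.04 in miR-30 against cel-miR-67 cells (adjusted p = 0.716).

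All 9 plasma cell markers were above the filter, with mean levels per array of 11.41 to 11.43 in shBCL9, 11.17 to 11.18 in shGFP, 10.84 to 10.89 in miR-30 and 10.89 to 10.91 in cel-miR-67 arrays. Of the 9, 4 were called higher and 2 lower in shBCL9 than in shGFP cells. Markers of other cell types were above the filter for 4 of 6 of B cells, 3 of 6 of T and NK cells, 1 of 5 of myeloid, 2 of 4 of erythroid and 4 of 7 of stromal and epithelial cells, while MS4A1, CD2, CD14, LYZ and EPCAM were not above it. Of these, GZMB (-1.34) and BACH2 (-0.55) were called lower and KRT18 (0.50) and CD22 (0.25) higher in shBCL9 than in shGFP cells. Measures of the RNA itself also differed. The ACTB probe sets at the 3′ and 5′ ends of the transcript differed by 1.67 ± 0.08 in shBCL9 and 1.30 ± 0.11 in shGFP arrays, and by 2.07 ± 0.01 in miR-30 and 2.16 ± 0.09 in cel-miR-67 arrays (SD, n = 3 each). The signal of the 18S ribosomal RNA probe sets was 13.23 ± 0.02 in shBCL9 and 12.38 ± 0.07 in shGFP arrays, without overlap. It was 12.64 ± 0.04 in miR-30 and 12.50 ± 0.05 in cel-miR-67 arrays, also without overlap. The part of these differences in the results below was not tested, beyond fits with each measure as a covariate. Between shBCL9 and shGFP, no member was called with the 18S signal in the fit, against 0.0747% of all genes. With the ACTB difference 10 were, against 20.1% of all genes. Neither measure overlapped between shBCL9 and shGFP arrays, or between shGFP and cel-miR-67 arrays. The 18S signal also did not overlap between miR-30 and cel-miR-67 arrays. These fits therefore cannot tell the group from the measure, for the counts and for the changes of sign given below.

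The mature microRNAs are shown because their shared seed is what defines the family. The labels do not say which arm of each hairpin was transfected, and the 5p arm is shown because the series title names it. The seed (bases 2 to 8) is in capitals, and the sequences are those of RefSeq on GRCh38.p14. The first lies at chr6:71403595-71403616 on the minus strand, the second at chr1:40757300-40757322 and the third at chr1:40754371-40754392, both on the plus strand.
hsa-miR-30a-5p: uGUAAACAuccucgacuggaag
hsa-miR-30c-5p: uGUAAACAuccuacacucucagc
hsa-miR-30e-5p: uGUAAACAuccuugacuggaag
The 3 share the seed GUAAACA and differ in the bases after it. hsa-miR-30b and hsa-miR-30d are named only.

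Between shBCL9 and shGFP cells, 22 of the 39 tested members were called, 13 higher and 9 lower. The 13 include RNF43, whose difference is a description. Of all genes tested 41.5% were called in this comparison, 18.7% higher and 22.9% lower, against 56.4% of the members. The 3 arrays of one group were clear of those of the other for 24 members, or 61.5%, against 52% of all genes. The median change was 0.07 over the members and 0.03 over all genes, and the median size of change, sign left aside, was 0.21 over the members and 0.16 over all genes. Because the members were chosen with earlier results of these data known, these shares and medians describe the list and do not test for an excess. In the other arm none of the 39 was called between miR-30 and cel-miR-67 cells, against 4.98% of all genes, and their changes ran from -0.25 to 0.26. In RNA pooled from many cells, a change in the share of cells with a transcript and one in RNA per cell cannot be told apart.

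**Figure D1:**
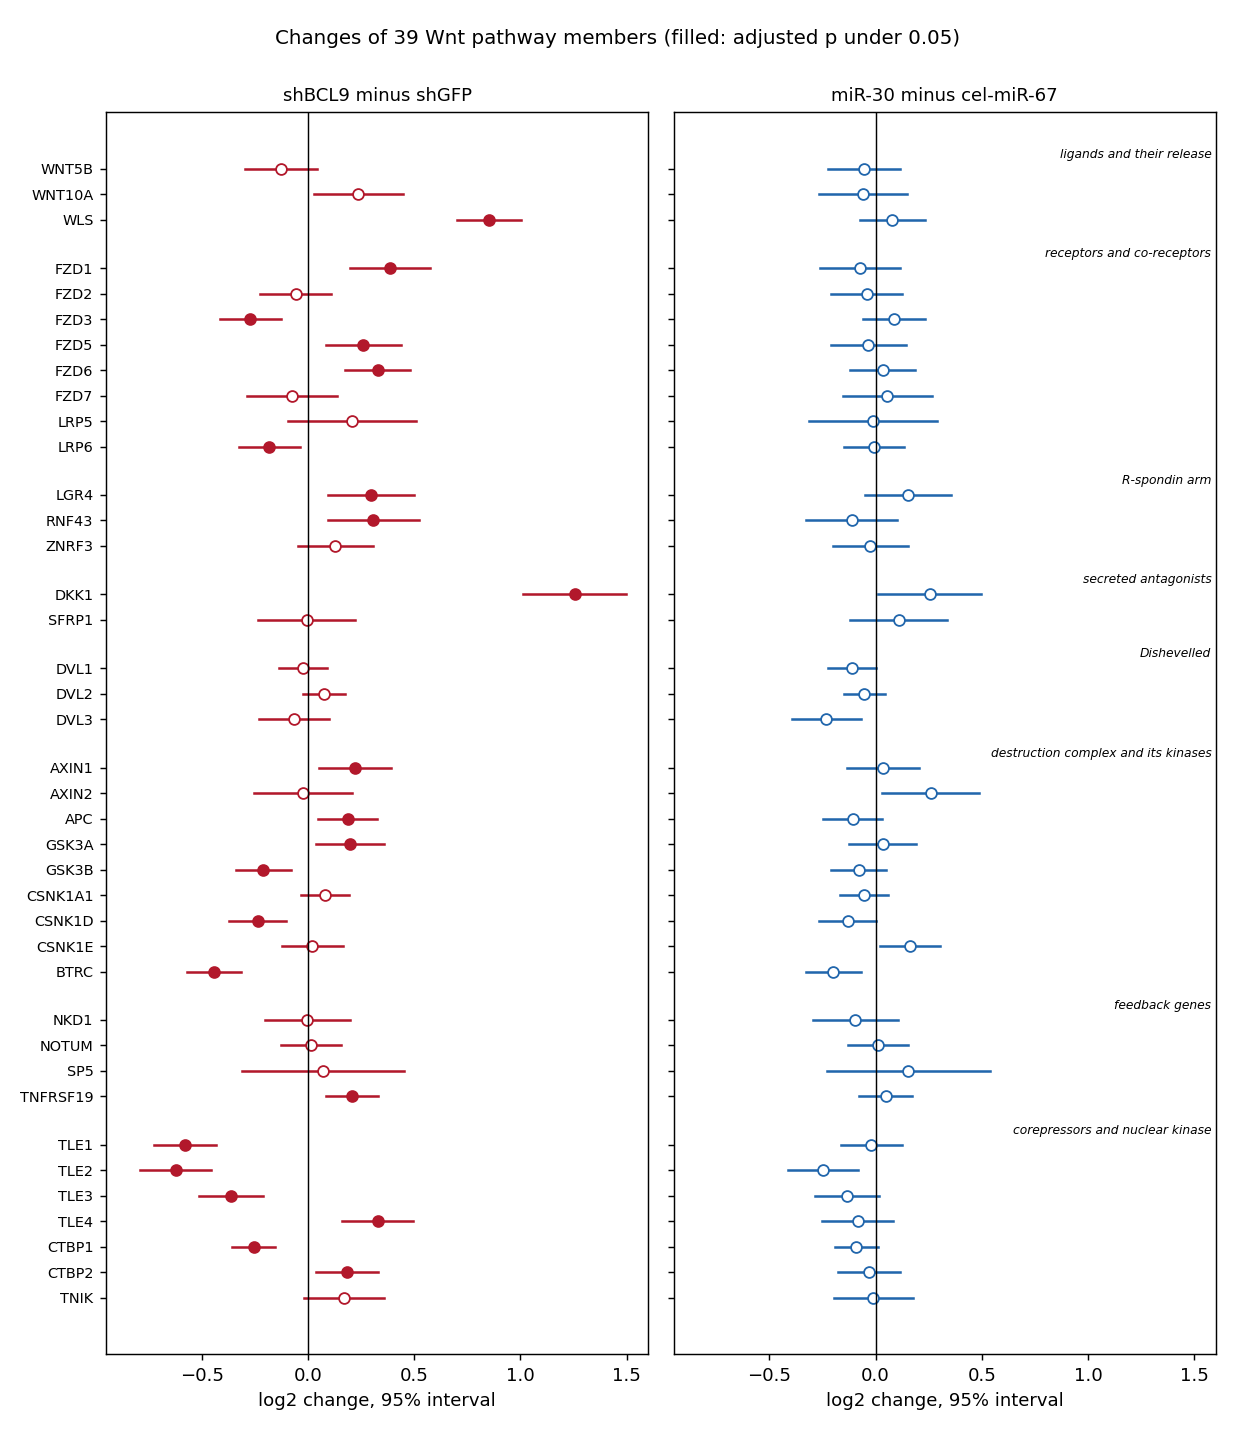
Change of each of the 39 tested members on the log2 scale with its 95% interval, shBCL9 minus shGFP on the left and miR-30 minus cel-miR-67 on the right, ordered by pathway step; filled points have an adjusted p under 0.05. DKK1 (1.25) and WLS (0.85) reach furthest to the right and TLE2 (-0.62) and TLE1 (-0.58) furthest to the left in the hairpin arm, and no point is filled in the miR-30 arm.

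Of the ligands and the genes of their release, WLS rose. WLS encodes the transmembrane carrier (Wntless) that takes Wnt ligands from the Golgi to the cell surface. It had 9.44, 9.49 and 9.42 in shBCL9 arrays, against 8.52, 8.52 and 8.77 in shGFP arrays. The shBCL9 arrays were within 0.03 (SD) of each other and all above the shGFP arrays, of which the third stood somewhat higher than the other two. The change was 0.85 (95% interval 0.70 to 1.00, adjusted p = 1.125e-06), a 1.80-fold higher level, and all 3 of its probe sets were called, at 0.85 to 0.97. In miR-30 arrays it had 8.90, 8.91 and 9.00, against 8.78, 8.92 and 8.86 in cel-miR-67 arrays, which overlapped (change 0.08, adjusted p = 0.574).

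The ligand WNT10A had a change of 0.24 that was not called (adjusted p = 0.0655), although its arrays did not overlap, and its second probe set went the other way, at -0.30 (adjusted p = 0.00367 in a fit over single probe sets). WNT5B, a ligand known mainly for signalling without beta-catenin, changed by -0.13 on its brightest probe set (adjusted p = 0.203). Its second probe set in brightness was singled out after its values were seen. It had 4.27, 4.39 and 4.22 in shBCL9 arrays, against 7.18, 7.13 and 7.16 in shGFP arrays. It had 4.18, 3.97 and 3.95 in miR-30 arrays, against 3.90, 3.94 and 3.94 in cel-miR-67 arrays. The signal was high in the 3 shGFP arrays only, and the other 9 arrays lay below the filter level of 4.86 to 4.95. This probe set met the filter through the shGFP arrays alone, so its values are a description with no test. The remaining WNT5B probe set was below the filter and differed by 0.10 between shBCL9 and shGFP.

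**Figure D2:**
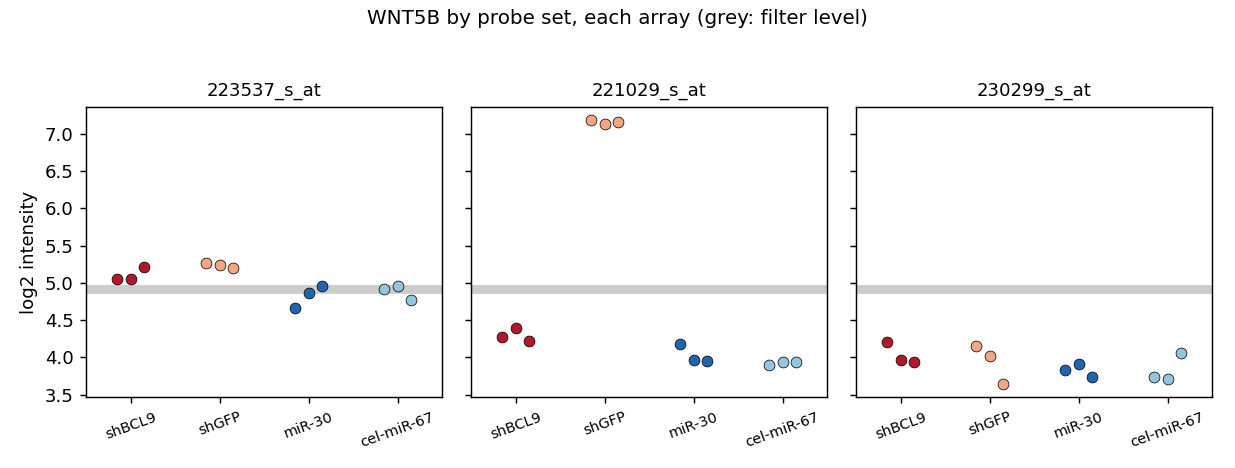
Log2 intensity of each array on the 3 probe sets of WNT5B, with the 4 groups along the horizontal axis and the filter level in grey. In the middle panel the shGFP arrays sit at 7.13 to 7.18 and every other array at or below 4.39, while the brightest, in the left panel, changed by -0.13 between shBCL9 and shGFP.

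Frizzled receptors moved in both directions. Of the 8 tested receptors and co-receptors, 3 were called higher (FZD1, FZD5, FZD6) and 2 lower (FZD3, LRP6) in shBCL9 than in shGFP cells. FZD1, a receptor known to act through beta-catenin, had 6.72, 6.85 and 6.62 in shBCL9 arrays, against 6.26, 6.29 and 6.48 in shGFP arrays. The groups did not overlap, and the change was 0.39 (adjusted p = 0.00357). The sign of the FZD1 change turned with either RNA measure in the fit, to -0.02 with the ACTB difference and -0.65 with the 18S signal, neither of them called. In the miR-30 arm FZD1 had 7.31, 7.27 and 7.19 in miR-30 arrays, against 7.50, 7.31 and 7.18 in cel-miR-67 arrays, which overlapped.

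FZD6, a receptor best known for planar cell polarity, had 10.06, 10.10 and 10.02 in shBCL9 arrays, against 9.71, 9.76 and 9.72 in shGFP arrays. These groups were far apart for their spread of 0.04 and 0.03 (SD), and the change was 0.33 (adjusted p = 0.00247). It had 9.95, 10.22 and 10.25 in miR-30 arrays, against 10.10, 10.14 and 10.08 in cel-miR-67 arrays, with the first miR-30 array below all 3 controls. FZD5 changed by 0.26 (adjusted p = 0.0212) with overlapping arrays, and its call was lost without any of 4 arrays (shBCL9 replicate 1 or 2, shGFP replicate 1 or 2), at adjusted p of 0.0549 to 0.0875. FZD3, another polarity receptor, fell by 0.27 (adjusted p = 0.00582), and all 4 of its probe sets were called lower, at -0.41 to -0.24. LRP6, the co-receptor that is phosphorylated when a ligand binds, was called at -0.18 (adjusted p = 0.0409), a call lost without any of 4 arrays, and its other probe sets above the filter changed by 0.11 and -0.12. FZD2 (-0.06), FZD7 (-0.08) and the second co-receptor LRP5 (0.21, adjusted p = 0.250) were not called. On the second probe sets of FZD2 and FZD7, in the fit over single probe sets, FZD2 was called higher (0.25, adjusted p = 0.0179) and FZD7 lower (-0.28, adjusted p = 0.0118) in shBCL9 cells.

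In the R-spondin arm, R-spondins bound to LGR receptors remove the ubiquitin ligases RNF43 and ZNRF3, which otherwise take Frizzled receptors off the membrane. RNF43 had 5.17, 5.03 and 5.13 in shBCL9 arrays, against 4.98, 4.65 and 4.78 in shGFP arrays. The shBCL9 arrays were all above the shGFP arrays, by 0.31 in the mean, but the shGFP mean of 4.80 was below the filter level. RNF43 is counted among the called members because it passed the fit, and its call was lost without shBCL9 replicate 1 or 3 or shGFP replicate 2 or 3. In the other arm RNF43 had 4.69, 4.41 and 4.74 in miR-30 arrays, against 4.61, 4.80 and 4.77 in cel-miR-67 arrays. LGR4 was called higher by 0.30 (adjusted p = 0.0218), with a spread of 0.21 in shBCL9 arrays against 0.04 in shGFP arrays (SD), and its call was lost without shBCL9 replicate 2 or 3 or shGFP replicate 2 or 3. ZNRF3 had 7.79, 7.82 and 7.49 in shBCL9 arrays, against 7.57, 7.51 and 7.64 in shGFP arrays, which overlapped (change 0.13, adjusted p = 0.223), and it was called without shBCL9 replicate 3 (0.23, adjusted p = 0.0145).

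The largest change of any tested member between shBCL9 and shGFP cells on the brightest probe set was that of DKK1, the secreted antagonist that binds LRP5 and LRP6. DKK1 had 6.36, 6.53 and 6.40 in shBCL9 arrays, against 5.14, 5.21 and 5.18 in shGFP arrays. The groups were more than 1 unit apart with spreads of 0.09 and 0.04 (SD). The change was 1.25 (95% interval 1.01 to 1.50, adjusted p = 2.398e-06), a 2.39-fold higher level, on its single probe set. It stayed called with the ACTB difference in the fit (0.96, adjusted p = 0.0201), while with the 18S signal the estimate was -0.32 (adjusted p = 0.942). In the other arm DKK1 had 4.89, 4.81 and 5.21 in miR-30 arrays, against 4.97, 4.62 and 4.56 in cel-miR-67 arrays. Those groups overlapped around the filter level, and the change of 0.25 was not called (adjusted p = 0.216). SFRP1, which binds Wnt ligands outside the cell, did not pass the test in either arm (-0.01 in shBCL9 against shGFP, 0.11 in miR-30 against cel-miR-67).

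**Figure D3:**
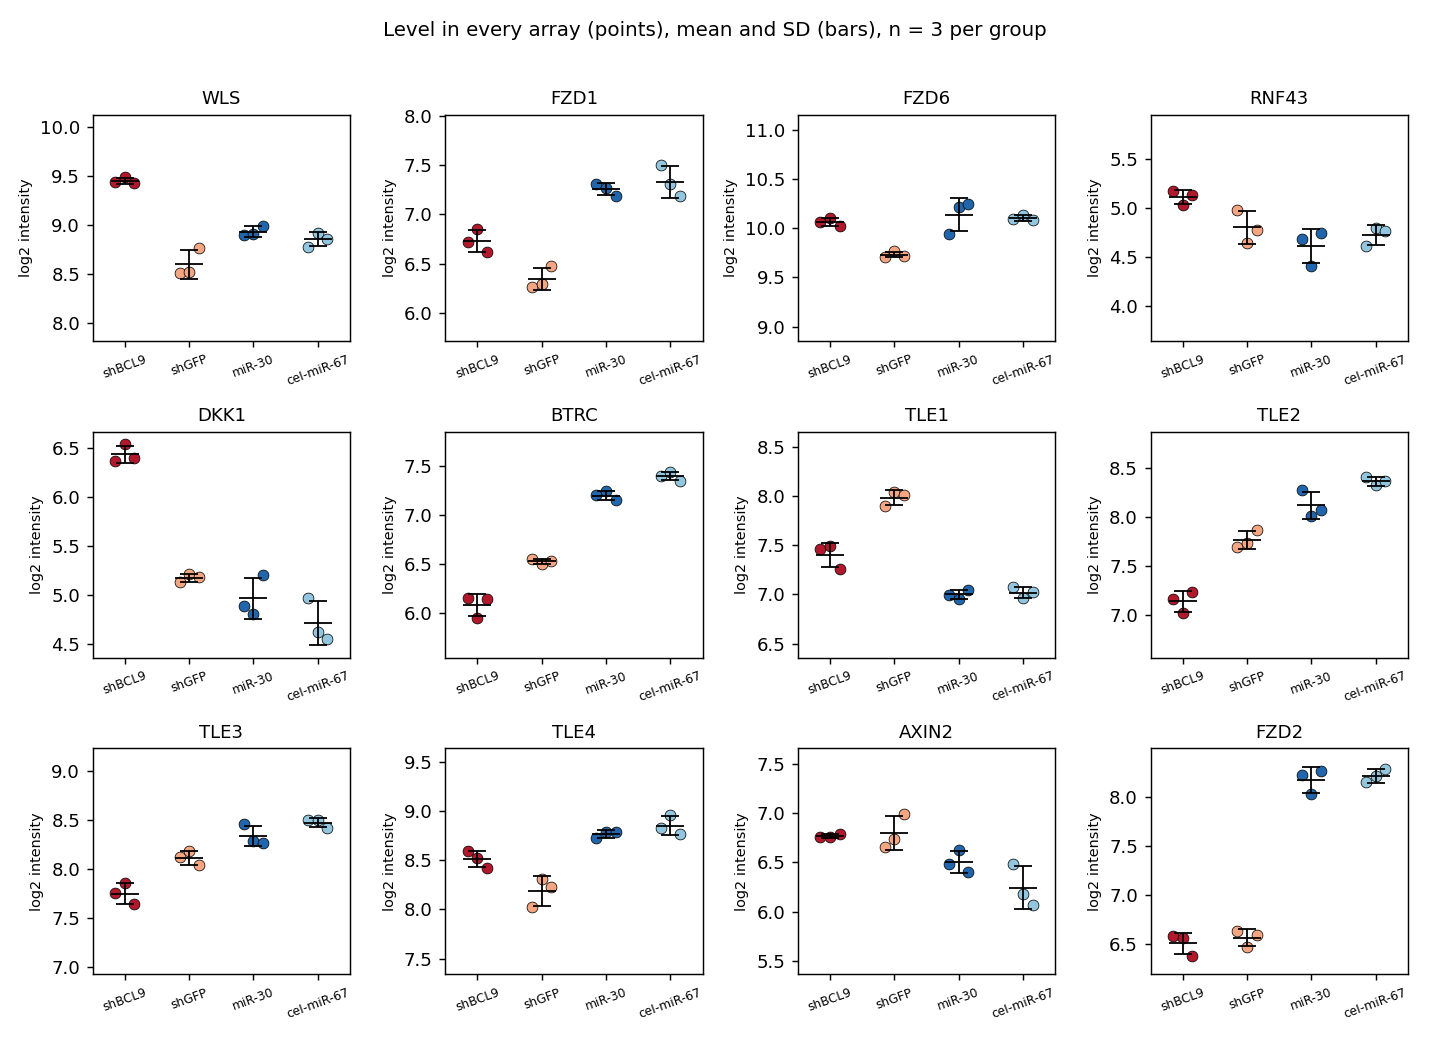
Log2 intensity of 12 members in every array (points) with the mean and SD of each group (bars, n = 3), every panel spanning the same range on its vertical axis. In the DKK1 panel the shBCL9 arrays stand at 6.36 to 6.53 and the shGFP arrays at 5.14 to 5.21, and in the FZD2 panel both infected groups lie below 7 and both transfected groups above 8.

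Of the Dishevelled proteins, which pass the signal from receptor to AXIN, none was called between shBCL9 and shGFP. DVL1 changed by -0.02, DVL2 by 0.08 and DVL3 by -0.07. In miR-30 against cel-miR-67 cells all 3 had negative changes (DVL1 -0.11, DVL2 -0.05, DVL3 -0.23), without a call in this fit. Their arrays did not overlap, as was so for 26.1% of all genes (16.1% lower). The groups nearly touched for DVL2 (highest miR-30 array 8.7559, lowest cel-miR-67 array 8.7566) and DVL3 (8.4525 and 8.4596). The second probe sets of DVL2 and DVL3 changed by -0.01 and -0.02.

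The destruction complex and its kinases split evenly. Of 9 tested, 3 were called higher (AXIN1, APC, GSK3A), 3 lower (GSK3B, CSNK1D, BTRC) and 3 were not called (AXIN2, CSNK1A1, CSNK1E). BTRC, the F-box protein that recognises phosphorylated beta-catenin, had 6.16, 5.95 and 6.14 in shBCL9 arrays, against 6.55, 6.50 and 6.53 in shGFP arrays. The groups did not overlap, with shBCL9 the lower, and the change was -0.44 (adjusted p = 6.962e-05). Its probe sets disagreed: the other 3 above the filter changed by 0.20, -0.01 and -0.24, of which the last was called (adjusted p = 0.0493 over single probe sets). That last one lay near the filter level, at 4.98, 4.88 and 4.97 in shBCL9 arrays. On its brightest probe set BTRC had 7.20, 7.24 and 7.15 in miR-30 arrays, against 7.40, 7.44 and 7.35 in cel-miR-67 arrays. These groups also did not overlap, and the change of -0.20 had the lowest adjusted p of any member in that arm (0.0752).

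The scaffolds AXIN1 (0.22, adjusted p = 0.0364) and APC (0.19, adjusted p = 0.0328) and the kinase GSK3A (0.20, adjusted p = 0.0471) were called higher by small margins. Without 1 array the AXIN1 call was lost in 3 cases (shBCL9 replicate 2, shGFP replicate 2 or 3) and the APC call in 4 (shBCL9 replicate 2 or 3, shGFP replicate 1 or 2). The GSK3A call was lost in 5 (all but shBCL9 replicate 3). The 3 other APC probe sets above the filter had changes of the opposite sign, at -0.04, -0.09 and -0.15, none called. GSK3B, the paralog of GSK3A, fell by 0.21 on its brightest probe set (adjusted p = 0.0133), lost without shBCL9 replicate 3 (adjusted p = 0.0568), and its probe sets ranged from -0.63 to 0.20. CSNK1D, a casein kinase 1 isoform, fell by 0.24 (adjusted p = 0.00851), while its second probe set changed by 0.04. CSNK1A1, the isoform that primes beta-catenin for GSK3, changed by 0.08 on its brightest probe set (adjusted p = 0.247), and 6 of its 12 probe sets above the filter were called higher, the highest at 0.58.

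**Figure D4:**
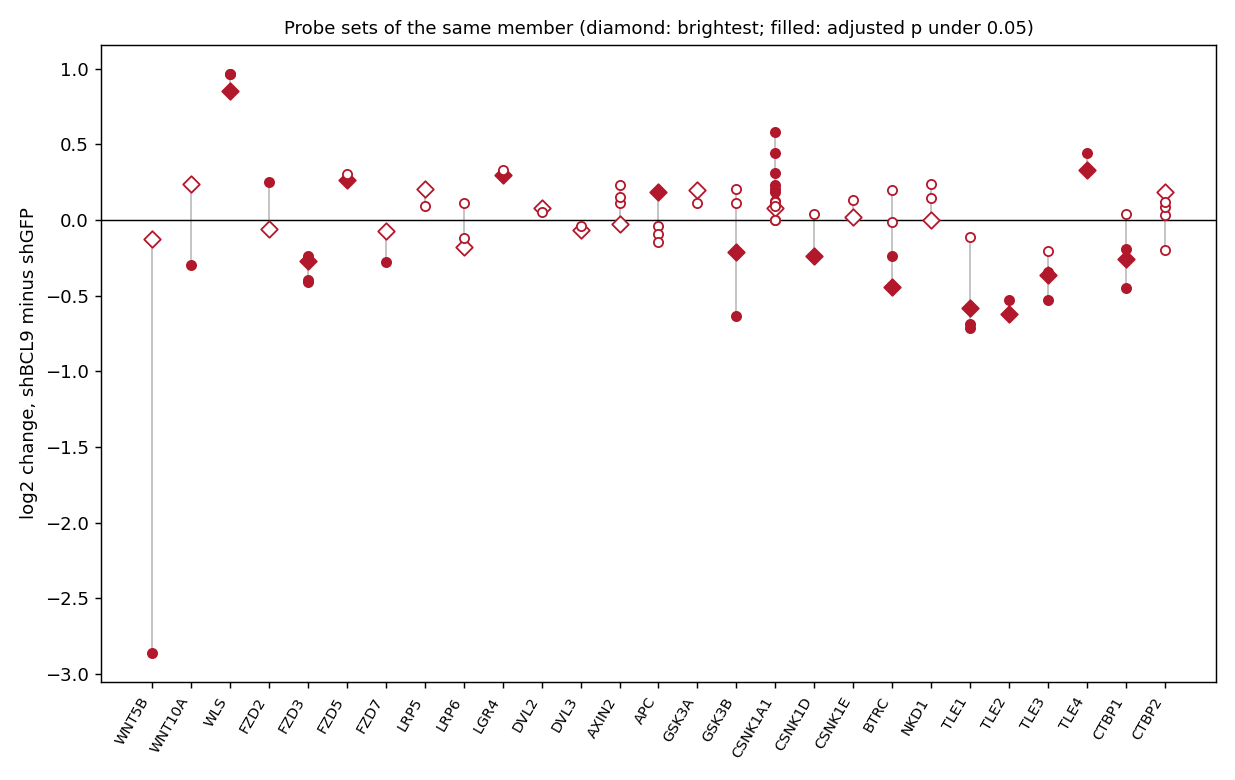
Change between shBCL9 and shGFP (log2, vertical axis) on each probe set above the filter, for the members that have more than 1; diamonds mark the brightest probe set and filled symbols an adjusted p under 0.05 over single probe sets. The 3 WLS probe sets stand together at 0.85 to 0.97 and the 4 FZD3 probe sets at -0.41 to -0.24, whereas those of BTRC run from -0.44 to 0.20. The lowest symbol, a WNT5B probe set at -2.86, met the filter through the shGFP arrays alone, so its fill is not read as a test.

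Of the 22 called members, 16 had another probe set above the filter. All of the others had the sign of the brightest in 9 of these, some had the opposite sign in 7, and none had a call in the opposite direction. The remaining 6, FZD1, FZD6, RNF43, DKK1, AXIN1 and TNFRSF19, rested on 1 probe set.

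Of the feedback genes and readouts of the pathway, AXIN2, NKD1, NOTUM and SP5 were not called in either arm. AXIN2 had 6.76, 6.76 and 6.79 in shBCL9 arrays, against 6.66, 6.74 and 6.99 in shGFP arrays. These overlapped, and the change was -0.02 (95% interval -0.25 to 0.20, adjusted p = 0.872). AXIN2 had 6.48, 6.62 and 6.41 in miR-30 arrays, against 6.48, 6.18 and 6.07 in cel-miR-67 arrays. The first array of both groups stood at 6.48, and the change of 0.26 was not called (adjusted p = 0.180). The other AXIN2 probe sets above the filter changed by 0.23, 0.11 and 0.15 between shBCL9 and shGFP. In miR-30 against cel-miR-67 cells they changed by 0.02, 0.09 and -0.01, and none was called in either arm. NKD1, an inhibitor of Dishevelled, changed by 0.00 (95% interval -0.20 to 0.20) on its brightest probe set and NOTUM, an esterase that inactivates Wnt ligands, by 0.01 (95% interval -0.13 to 0.16) between shBCL9 and shGFP. The other NKD1 probe sets changed by 0.24 and 0.15, neither called. The transcription factor SP5 changed by 0.07, with a wide interval of -0.31 to 0.45. TNFRSF19, a TNF receptor family member reported as a target of the pathway, was called higher by 0.21 (adjusted p = 0.0117). It was not called in miR-30 against cel-miR-67 cells (0.05).

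Among the corepressors, TLE1, TLE2 and TLE3 fell while TLE4 rose in shBCL9 against shGFP cells. TLE proteins bind TCF factors and keep target genes silent when beta-catenin is absent. TLE1 had 7.46, 7.49 and 7.26 in shBCL9 arrays, against 7.90, 8.04 and 8.01 in shGFP arrays. The shBCL9 arrays were lower without overlap, with a change of -0.58 (adjusted p = 2.043e-05), a 1.49-fold lower level, and 3 of its 4 probe sets above the filter were called lower. TLE1 had 7.00, 6.96 and 7.05 in miR-30 arrays, against 7.08, 6.96 and 7.02 in cel-miR-67 arrays, which overlapped.

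TLE2 had 7.16, 7.03 and 7.24 in shBCL9 arrays, against 7.70, 7.74 and 7.86 in shGFP arrays. It was lower without overlap by 0.62 (adjusted p = 3.391e-05), a 1.54-fold lower level, and both of its probe sets were called. TLE2 had 8.27, 8.01 and 8.07 in miR-30 arrays, against 8.41, 8.32 and 8.36 in cel-miR-67 arrays. The miR-30 arrays were all lower there too, with a change of -0.25 that was not called (adjusted p = 0.0843). TLE3 had 7.76, 7.86 and 7.64 in shBCL9 arrays, against 8.12, 8.18 and 8.04 in shGFP arrays. It fell by 0.36 without overlap (adjusted p = 0.00113), and 3 of its 4 probe sets were called lower. TLE3 had 8.46, 8.29 and 8.27 in miR-30 arrays, against 8.50, 8.50 and 8.42 in cel-miR-67 arrays, which overlapped.

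TLE4 had 8.59, 8.53 and 8.42 in shBCL9 arrays, against 8.02, 8.31 and 8.23 in shGFP arrays. The groups did not overlap, and the change was 0.33 (adjusted p = 0.00444), with both probe sets above the filter called higher. With either RNA measure in the fit the TLE4 estimate turned to a negative sign, -0.07 with the ACTB difference and -0.36 with the 18S signal, neither called. TLE4 had 8.72, 8.79 and 8.78 in miR-30 arrays, against 8.82, 8.96 and 8.77 in cel-miR-67 arrays, which overlapped. CTBP1, a corepressor shared by many repressor complexes, fell by 0.26 (adjusted p = 0.000847), and 3 of its 4 probe sets were called lower. CTBP2 was called higher by 0.18 (adjusted p = 0.0455), but its other probe sets above the filter were not called, and the call was lost without any of 5 arrays (all but shBCL9 replicate 3). The kinase TNIK, which phosphorylates TCF factors, was not called (0.17, adjusted p = 0.134).

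**Figure D5:**
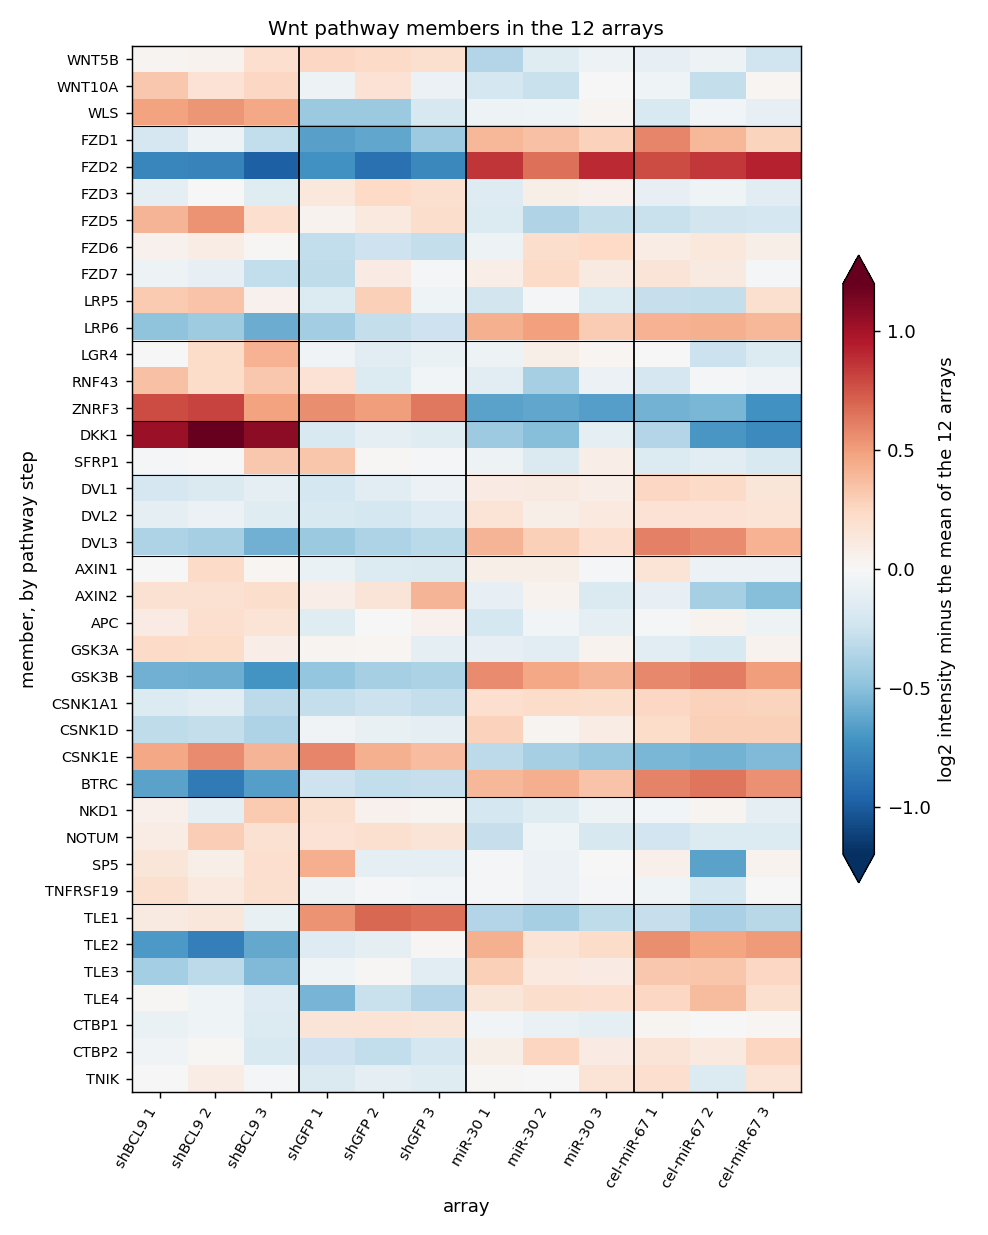
Log2 intensity of the 39 tested members in each of the 12 arrays minus the member's mean over the 12, with arrays along the horizontal axis and members by pathway step down the page. WLS and DKK1 are above their mean in the 3 shBCL9 arrays, TLE1 is highest in the 3 shGFP arrays, and the infected and transfected arrays separate on FZD2 and ZNRF3.

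In the miR-30 arm the count of 0 called members came from limma's default fit, and 6 of 39 (15.4%) had an unadjusted p under 0.05, against 21% of all genes. The arrays did not overlap for 8 members (20.5%), against 26.1% of all genes: CSNK1E was higher and DVL1, DVL2, DVL3, CSNK1A1, BTRC, TLE2 and CTBP1 were lower in miR-30 cells, where 10% of all genes were higher and 16.1% lower without overlap. The median change was -0.03 over the members and -0.02 over all genes, and the median size of change was 0.08 in both. For 38 of the 39 the 95% interval lay within 0.5 of 0 on either side. These intervals rest on the scatter among arrays and on 1 probe set per gene, so they do not bound the effect of the treatment. With other settings up to 2 members were called: TLE2 and DVL3 with array weights (-0.26, adjusted p = 0.0376, and -0.25, adjusted p = 0.0428) or with limma's trend and robust options, and BTRC with a stricter filter (-0.20, adjusted p = 0.0454). Of all genes tested, 8.29% were called with array weights, 9.64% with the trend and robust options and 9.84% with the stricter filter. TLE2 was also called without miR-30 replicate 1 (-0.32, adjusted p = 0.0364).

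The difference between the 2 effects was tested as well, as the miR-30 change minus the shBCL9 change. It was called for 11 of 39 members (28.2%), against 26.3% of all genes, a share near the background. The 11 include RNF43, whose difference is a description. Of the 11, 4 were positive and 7 negative, against 14.6% and 11.7% of all genes. It was largest for DKK1 (-1.00, 95% interval -1.34 to -0.66, adjusted p = 0.000579) and WLS (-0.77, 95% interval -0.98 to -0.56, adjusted p = 0.000109), which rose in shBCL9 cells and were not called in miR-30 cells. TLE1 differed the other way (0.56, adjusted p = 0.000874).

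Called members were most numerous between the 2 controls. In shGFP minus cel-miR-67, 28 of 39 members were called (71.8%), 11 higher and 17 lower, against 61.4% of all genes, 28.4% higher and 33% lower. The median size of change was 0.35 over the members and 0.26 over all genes. Here too the members were chosen with earlier results known, so the shares are a description. Infection with sorting and transfection cannot be told apart from each other or from any other difference between the arms, and this comparison shares the shGFP arrays with one treatment comparison and the cel-miR-67 arrays with the other.

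FZD2, a Frizzled receptor whose brightest probe set changed by -0.06 in shBCL9 against shGFP and -0.04 in miR-30 against cel-miR-67, had on it 6.64, 6.47 and 6.59 in shGFP arrays, against 8.15, 8.21 and 8.29 in cel-miR-67 arrays. The difference of -1.65 (adjusted p = 1.013e-09) was the largest among the brightest probe sets of the members. It was -0.31 on the second FZD2 probe set (adjusted p = 0.00311 over single probe sets) and -0.98 with the mean of all probe sets, where it stayed called. ZNRF3 was higher in shGFP arrays, at 7.57, 7.51 and 7.64, against 6.44, 6.46 and 6.28 in cel-miR-67 arrays (1.18, adjusted p = 3.779e-08). On their brightest probe sets all 3 Dishevelled genes were lower in shGFP than in cel-miR-67 cells (DVL1 -0.34, DVL2 -0.35, DVL3 -0.91), as were FZD1 (-0.99), GSK3B (-0.97) and LRP6 (-0.73). CSNK1E (1.01), TLE1 (0.96) and AXIN2 (0.55) were higher. Over single probe sets above the filter, the others of DVL2 (-0.10), DVL3 (0.04) and LRP6 (-0.11 and -0.19) were not called. The others of GSK3B changed by -0.46 (called), -0.11 and 0.04, and those of AXIN2 by 0.17, 0.02 and -0.01 (none called). Those of CSNK1E (0.22) and TLE1 (0.52 and 1.10, with 0.21 not called) were called higher. With the ACTB difference in the fit 5 of 39 members were called, against 11.3% of all genes: FZD2, ZNRF3, BTRC and TLE1 with the same sign, and FZD7 (1.14), which was not called without it.

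The order of the groups differed between genes. TLE1 averaged 7.40 ± 0.12 in shBCL9, 7.98 ± 0.08 in shGFP, 7.00 ± 0.05 in miR-30 and 7.02 ± 0.06 in cel-miR-67 arrays (SD, n = 3 each), so that the shBCL9 mean lay between that of its control and those of the transfected cells. TLE2 averaged 7.14 ± 0.11, 7.77 ± 0.09, 8.12 ± 0.14 and 8.36 ± 0.04 in the same order, lowest in shBCL9. WLS was highest in shBCL9 (9.45 ± 0.03) and lowest in shGFP (8.60 ± 0.15), with miR-30 (8.93 ± 0.05) and cel-miR-67 (8.85 ± 0.07) between them and not separable from each other.

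Both members whose probe sets were called in opposite directions were so in the comparison of the controls. CSNK1D on its brightest probe set had 8.80, 8.76 and 8.74 in shGFP arrays, against 9.07, 9.14 and 9.14 in cel-miR-67 arrays. On its second it had 7.89, 8.06 and 8.06 in shGFP arrays, against 7.75, 7.78 and 7.78 in cel-miR-67 arrays. The shGFP arrays were all lower on the first (-0.35) and all higher on the second (0.23). BTRC on its brightest probe set was lower in shGFP than in cel-miR-67 arrays by 0.87, without overlap. On a dimmer one it had 5.13, 5.20 and 5.22 in shGFP arrays, against 4.86, 5.10 and 4.79 in cel-miR-67 arrays, higher by 0.26. These groups did not overlap but nearly touched, and the signal lay near the filter level of 4.86 to 4.95.

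Beyond the members, 65 other genes of the pathway were listed, of which 63 were represented and 44 tested. In shBCL9 against shGFP cells 12 of the 44 were called higher and 9 lower, against 18.7% and 22.9% of all genes. In miR-30 against cel-miR-67 cells none was called, against 4.98% of all genes. There 5 had an unadjusted p under 0.05, against 21% of all genes. The lowest adjusted p was that of WNT10B, a ligand that signals through beta-catenin. WNT10B had 6.71, 6.87 and 6.88 in shBCL9 arrays, against 7.88, 7.89 and 8.03 in shGFP arrays. The groups did not overlap and it fell by 1.12 (adjusted p = 1.188e-07), while it changed by -0.07 in miR-30 against cel-miR-67 cells. CELSR2, an atypical cadherin of the planar polarity branch, fell by 0.71 (adjusted p = 6.93e-06). PRICKLE1 of the same branch rose by 0.92 (adjusted p = 5.158e-05) and CUL1, the cullin of the ligase that holds BTRC, by 0.42 (adjusted p = 1.956e-05).

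Promoters are shown for DKK1, WLS, TLE1 and SP5, chosen after their values and matches were seen, as 250 bases before the start of the gene in RefSeq on GRCh38.p14. The letters searched were CTTTGA, the core of the motif that TCF and LEF factors bind, on both strands (TCAAAG on the other), and they stand in capitals. Of 35116 promoter windows of this length, 3937 (11.21%) hold a match. Windows were found for 32 of the 45 members, 52 in all, and 5 windows of 4 members hold one (DKK1, PORCN, SP5 and TLE4). DKK1 has 2 matches, 149 and 95 bases before its start (chr10:52314031-52314280, plus strand), and SP5 has 3, at 147, 109 and 83 bases (chr2:170715087-170715336, plus strand). WLS (chr1:68232524-68232773, minus strand) and TLE1 (chr9:81689548-81689797, minus strand) have none in these windows. The longer CTTTGAT was also searched on both strands. It is held by 794 windows (2.26%), and among the members by SP5 only.
DKK1: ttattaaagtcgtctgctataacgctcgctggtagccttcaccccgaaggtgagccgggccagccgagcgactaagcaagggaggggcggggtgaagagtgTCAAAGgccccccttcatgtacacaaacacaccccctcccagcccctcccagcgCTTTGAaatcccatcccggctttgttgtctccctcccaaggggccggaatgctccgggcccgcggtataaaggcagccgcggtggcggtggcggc
SP5: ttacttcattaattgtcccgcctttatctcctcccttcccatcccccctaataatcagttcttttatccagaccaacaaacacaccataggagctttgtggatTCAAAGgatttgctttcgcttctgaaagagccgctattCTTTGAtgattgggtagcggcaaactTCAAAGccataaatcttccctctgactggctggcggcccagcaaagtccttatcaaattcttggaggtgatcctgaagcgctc
WLS: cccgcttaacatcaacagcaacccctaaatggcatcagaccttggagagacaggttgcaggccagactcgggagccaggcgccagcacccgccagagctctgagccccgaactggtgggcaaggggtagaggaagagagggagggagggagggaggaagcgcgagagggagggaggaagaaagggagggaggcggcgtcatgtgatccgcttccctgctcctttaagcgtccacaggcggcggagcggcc
TLE1: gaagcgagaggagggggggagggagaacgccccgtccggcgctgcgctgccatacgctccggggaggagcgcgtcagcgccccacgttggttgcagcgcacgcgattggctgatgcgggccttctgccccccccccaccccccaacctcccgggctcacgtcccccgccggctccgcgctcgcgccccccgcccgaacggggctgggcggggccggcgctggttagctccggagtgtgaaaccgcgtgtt
DKK1 rose and SP5 was not called between shBCL9 and shGFP, with matches in both windows, while WLS rose and TLE1 fell with none in theirs. TLE4, whose match is not shown, was called higher (0.33), and PORCN has no value. A link between matches and changes was not tested.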

How the data were processed

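Expression was measured in 12 arrays of H929 cells, each with 54675 probe sets. Total RNA came from Trizol extracts and was amplified and biotinylated by in vitro transcription, per the labels' protocols. The deposited values are log2 intensities; per the submitters' processing notes, affy and RMA were used to make them, but versions and genome build are not given in the sources used here. The values ran from 2.16 to 14.88, array medians from 5.46 to 5.53, and correlations between arrays of 1 group from 0.997 to 0.998. Scanner files, scan dates and probe positions were not used here. Precision is limited by the 3 arrays in each group.

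Probe sets were named from GEO's platform annotation: 41097 had 1 gene symbol, 1801 several and 11777 were not listed, and 41043 matched GRCh38.p14 by gene ID, with 0 symbols changed. Each gene was taken on the single-symbol probe set with the highest mean over 12 arrays. A gene was tested if it lay above the array's 40th percentile (4.86 to 4.95) in at least 3 arrays. Group means over all 12 arrays were fitted with limma 3.58.1 (R 4.3.3, lmFit and eBayes), with 4 contrasts, and p-values were adjusted by Benjamini-Hochberg over 14725 genes. Changes are the first-named group minus the second. Probe sets were also fitted singly, with adjustment over the probe sets above the filter. The procedure was tested on simulated data. BCL9 and the RNA measures also had an exact permutation test.

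The members and the lists were chosen with earlier results of these data known. Values of every array are given for members called in a treatment comparison with a change of at least 0.3 and for members whose called probe sets differed in sign; for the other pathway genes, values are given for up to 4 by adjusted p. AXIN2, FZD2, ZNRF3 and the WNT5B probe set fall outside this rule and were added after their values were seen. Figures were drawn with matplotlib 3.10.9 in Python 3.11.15.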

Additional observations from a re-analysis of the deposited data

Results flagged for a closer look

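In 11 members the change differed between the arms by limma's test of the difference itself, given here as the miR-30 change minus the shBCL9 change, each against its own control. DKK1 had a difference of -1.00 (adjusted p = 0.000579), from changes of 0.25 in the miR-30 arm and 1.25 in the hairpin arm. WLS had -0.77 (adjusted p = 0.000109), from 0.08 in the miR-30 arm and 0.85 in the hairpin arm. TLE1 had 0.56 (adjusted p = 0.000874), from -0.02 in the miR-30 arm and -0.58 in the hairpin arm. These 3 stayed called without any single array.

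FZD1 had -0.46 (adjusted p = 0.0159) and TLE4 -0.41 (adjusted p = 0.0143), each from a change below 0 in the miR-30 arm and one above 0 in the hairpin arm. FZD3 had 0.36 (adjusted p = 0.0140) and TLE2 0.38 (adjusted p = 0.0217), the TLE2 call being lost without shGFP replicate 3 (adjusted p = 0.0516). FZD6 (-0.30, adjusted p = 0.0440), APC (-0.29, adjusted p = 0.0298) and BTRC (0.24, adjusted p = 0.0473) kept their calls in 8, 12 and 6 of 24 alternative settings. BTRC changed sign with plain probe sets only, and APC with plain probe sets only and with the 18S signal in the fit. RNF43 had a difference of -0.42, a description since it met the filter through its shBCL9 arrays. With the ACTB difference in the fit 4 members were called, against 11.7% of all genes. TLE1 and FZD3 had the same sign, as had RNF43, again a description, and FZD7 (0.83) was not called without it. With the 18S signal in the fit no member was called, against 0.129% of all genes.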

How the results depend on the processing

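Between shBCL9 and shGFP 22 members were called. Leaving out 1 array at a time gave 15 to 19 (34.3% to 39.6% of all genes, against 41.5%), and 17 to 23 were called with no filter, a stricter filter, the mean of all probe sets, further quantile normalization, arrays centred on their median, only the arrays compared, array weights, trend and robust variance, or a replicate block. Over these settings the share of all genes called ran from 30.1% (no filter) to 51.1% (array weights). The count was 14 with plain probe sets only (40.1% of all genes), 12 at an adjusted p under 0.01 (27.4%), 10 with the ACTB 3′ to 5′ difference as a covariate (20.1%) and 0 with the 18S signal as a covariate (0.0747%). Neither the 18S signal nor the ACTB difference overlaps between shBCL9 and shGFP arrays, so these fits cannot tell the group from the covariate. With the 18S signal only 11 of 14725 genes were called. Between miR-30 and cel-miR-67 the count was 0 to 1 without 1 array (2.02% to 3.68% of all genes), 1 with the stricter filter (9.84%), and 2 with array weights (8.29%) or with trend and robust variance (9.64%). The 18S signal did not overlap in this arm either, and with it in the fit 0.38% of all genes were called. For the difference of effects it was 7 to 11 without 1 array (21.7% to 25.5% of all genes), with 7 without shGFP replicate 3 (23.4%), against 11. It was 3 at an adjusted p under 0.01 (14.8% of all genes), 4 with ACTB (11.7%) and 0 with 18S (0.129%). For shGFP minus cel-miR-67 it was 26 to 27 without 1 array (56.6% to 59.8% of all genes) and 5 with ACTB (11.3%), against 28.

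The labels do not say whether replicate numbers pair the samples. Deviations of same-numbered arrays correlated at 0.05, 0.10 and 0.07 between shBCL9 and shGFP, and at 0.118, 0.091 and 0.226 between miR-30 and cel-miR-67. Between shGFP and cel-miR-67 they correlated at 0.002, 0.035 and -0.215. Arrays with different numbers were not compared, so these values cannot decide whether the samples are paired. The replicate block gave 20, 0, 10 and 27 members in the 4 comparisons, in the order above. The shares of all genes were 42.1%, 4.72%, 27% and 61.9%.

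Some estimates changed sign, and the cause was not tested. With plain probe sets, shBCL9 minus shGFP became -0.15 for APC, 0.20 for BTRC and 0.0415 for CTBP1, and the difference of effects 0.0621 for APC and -0.34 for BTRC; here another probe set stands for the gene. The mean of all probe sets gave -0.0077 for APC in shBCL9 minus shGFP. With ACTB as a covariate, shBCL9 minus shGFP became -0.021 for FZD1, -0.0089 for FZD5, -0.0509 for APC and -0.0676 for TLE4, the difference of effects 0.0371 for FZD1 and 0.0701 for TLE4, and shGFP minus cel-miR-67 0.0785 for WLS, -0.86 for SFRP1, 0.0207 for TLE3 and 0.24 for TLE4. With 18S, shBCL9 minus shGFP became -0.65 for FZD1, -0.0761 for FZD5, -0.32 for DKK1, -0.18 for APC, -0.11 for TNFRSF19 and -0.36 for TLE4, and the difference of effects 0.41 for FZD1, 0.32 for DKK1, 0.0151 for APC and 0.17 for TLE4. WLS, FZD3, TLE1, TLE2 and TLE3 kept their sign and call between shBCL9 and shGFP in 18 of 19 alternatives, the exception being 18S.

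Levels near the filter, as for RNF43, SP5, a dimmer BTRC probe set and DKK1 in control arrays, lie close to the dim end of the scale.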
